A study of Mus musculus with 6 samples.

Results

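The miR-29 family of miRNAs was measured in mouse myocardium, which is heart muscle, 6 days (6 d) after death and at death. The family was taken as every row whose name begins mmu-miR-29a-, mmu-miR-29b- or mmu-miR-29c-, with all copies and arms, which gave 7 of the 984 mature miRNAs in the files. Its 3p arms are mmu-miR-29a-3p, mmu-miR-29b-3p and mmu-miR-29c-3p, and its 5p arms are miR-29a-5p, miR-29b-1-5p, miR-29b-2-5p and miR-29c-5p. Small RNA was sequenced from 3 libraries at a post-mortem interval of 6 d and from 3 libraries at 0 h. This interval runs from death to sampling, and the series title sets the question of how miRNAs bear on estimating it. All 6 libraries are of myocardial tissue, and no treatment or altered gene is labelled in either group. The sources used here give no strain, age, sex or conditions between death and sampling. The labels do not name separate animals, so the p-values measure the spread between these libraries, which may be technical.

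A miRNA precursor folds into a hairpin, from which a 5p and a 3p arm are cut. One arm is usually kept as the guide that pairs through its seed, bases 2 to 8, with target messenger RNAs and lowers them. In miR-29 the 3p arm is the usual guide. Its known targets include collagens, elastin and fibrillin, and loss of miR-29 beside a mouse infarct goes with more collagen. The family is therefore called antifibrotic, and TGF-beta is known to lower it in heart fibroblasts. No messenger RNA or protein was measured in this series.

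The mature 3p sequences from RefSeq (build GRCm38.p6) are shown because the family differs in few bases, with the seed in capitals, 5′ to 3′.
mmu-miR-29a-3p: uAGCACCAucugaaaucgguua
mmu-miR-29b-3p: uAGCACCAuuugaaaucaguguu
mmu-miR-29c-3p: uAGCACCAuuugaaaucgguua
All 3 share the seed AGCACCA, and no other of the 1679 mature names in the RefSeq table holds it at bases 2 to 8. Counted from the 5′ end, miR-29a-3p and miR-29c-3p differ by C10U alone. From miR-29a-3p to miR-29b-3p the changes are C10U, G18A, U21G and A22U, and miR-29b-3p is 23 bases long against 22 for the others. miR-29c-3p and miR-29b-3p are the same over their first 17 bases and differ by G18A, U21G and A22U. The counting could therefore split reads between miR-29a-3p and miR-29c-3p, and shortened reads between miR-29c-3p and miR-29b-3p. The values of miR-29c-3p in particular are uncertain. miR-29b-3p ends in AGUGUU, an element described in human cells as directing it to the nucleus. That ending is held by 2 of the 1679 names (0.119%), the other being miR-92b-5p.

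The hairpins show which arm belongs to which locus, with the mature arms in capitals (RefSeq, GRCm38.p6; the sources used here name no build for the deposited values).
Mir29a, chr6:31062660-31062747, minus strand: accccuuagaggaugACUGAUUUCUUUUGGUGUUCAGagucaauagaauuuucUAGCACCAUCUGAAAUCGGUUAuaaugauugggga
Mir29b-1, chr6:31063023-31063093, minus strand: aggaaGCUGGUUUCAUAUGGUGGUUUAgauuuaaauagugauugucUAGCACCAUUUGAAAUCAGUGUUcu
Mir29b-2, chr1:195037040-195037120, plus strand: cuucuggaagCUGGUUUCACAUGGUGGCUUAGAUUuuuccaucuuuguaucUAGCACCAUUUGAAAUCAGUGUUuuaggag
Mir29c, chr1:195037547-195037634, plus strand: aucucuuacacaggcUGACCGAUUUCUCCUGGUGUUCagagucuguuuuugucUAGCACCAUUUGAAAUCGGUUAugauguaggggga
The pair on chromosome 6 lies 275 bases apart and the pair on chromosome 1 lies 426 bases apart. In GENCODE vM21 the chromosome 1 hairpins overlap exons of the non-coding transcript A330023F24Rik and, on the other strand, an annotated exon of Cd46. Mir29b-1 overlaps an exon of the lincRNA Gm27019, and Mir29a overlaps no other gene. Both Mir29b hairpins hold the same miR-29b-3p, so its reads cannot be assigned to a locus, whereas their 5p arms differ.

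Read depth over the 984 miRNAs was 617069 to 1889594 at 6 d and 4468547 to 7906557 at 0 h. Levels are given as normalised CPM, reads scaled to 1000000 per library and by a further library factor. A floor of 3 reads equals 1.91 to 3.97 normalised CPM at 6 d and 0.463 to 0.730 at 0 h. Of 6 heart-muscle miRNAs all were read in every library. The summed level of 12 miRNAs of other organs, such as liver, skeletal muscle and epithelia, was 5736 to 26383 normalised CPM at 6 d and 1330 to 2279 at 0 h. Most of the sum in 6 d replicates 2 and 3 was miR-122-5p of liver, at 23460 and 16716. Of the 11 tested 9 were higher and 0 lower by limma, beside 16% higher and 21.9% lower over all tested miRNAs. None of those 12 was at 0 in all libraries, though miR-124-3p of brain was at 0 in 2 of the 6 d libraries and in 0 h replicate 1, where miR-429-3p of epithelia was also at 0. The fibroblast markers, with the miR-199-3p rows that share reads counted once, summed to 10989.9 to 23685 normalised CPM at 6 d and 8291 to 9284 at 0 h. Of the 8 rows on that list 1 was higher and 1 lower by limma, with a median log2 fold change of -0.06. These 25% called stand beside 37.9% of all tested miRNAs. miR-21a-5p was higher (1.24, limma adjusted p = 0.035) and miR-214-3p lower (-1.59, limma adjusted p = 0.0099). Not past the limma threshold were miR-199a-3p (0.84, limma adjusted p = 0.057), miR-199b-5p (0.14), miR-199a-5p (-0.87), miR-214-5p (-0.65) and miR-152-3p (-0.27). All 6 d libraries of miR-199a-3p lay above all 0 h libraries, and edgeR called it (edgeR adjusted p = 0.039). The part of these lists in the miR-29 values was not tested. In tissue RNA, fewer cells of a type and less RNA per cell cannot be told apart.

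miR-29a-3p held nearly all of the family's reads and stayed within a narrow range on the deposited scale. It was at 1719, 1722 and 1559.7 normalised CPM in the 6 d libraries, against 1534, 1429 and 1656 in the 0 h libraries. The groups overlap, and the highest of the 6 values was 1.21 times the lowest. The means were 1667 ± 92.9 at 6 d and 1539.7 ± 113 at 0 h (SD, n = 3 each). The log2 fold change was 0.12 ± 0.28 (SE, limma adjusted p = 0.75), with a 95% interval of -0.51 to 0.74 on the log2 scale. A change of up to 1.67-fold upward or to 0.703 of the 0 h level thus lies within the interval. Among the 984 miRNAs it ranked 31st to 34th at 6 d and 42nd to 48th at 0 h.

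Over all 6 libraries together, the SD of log2(value + 1) was 0.106 for miR-29a-3p. Of the 470 tested miRNAs this was the smallest on the deposited scale, where the median SD was 0.800. The next smallest was 0.130 for miR-221-3p. This place depends on the scaling. With TMM factors recomputed miR-29a-3p was the 2nd of 470 (SD 0.140), with RLE size factors the 11th (0.203) and with library totals alone the 56th (0.466). As a share of all miRNA reads it held 0.203% ± 0.0702 at 6 d and 0.132% ± 0.0206 at 0 h (SD, n = 3 each), with 0.143% the lowest share at 6 d and 0.147% the highest at 0 h. Across the 470 tested miRNAs the median log2 fold change came to -0.33 with the deposited scaling and to 0.02 with library totals alone, and miR-29a-3p stood 0.45 and 0.55 above those medians.

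**Figure D1:**
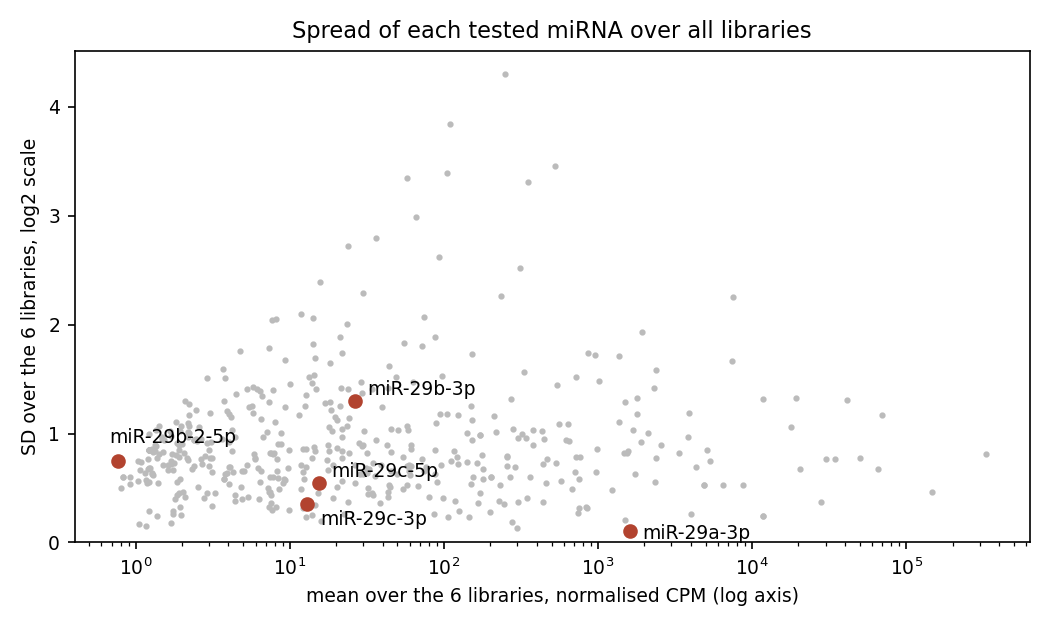
Each point is 1 of the 470 tested miRNAs, with its mean over the 6 libraries in normalised CPM on a log axis (x) and the SD of its log2(value + 1) over those libraries (y). Red points are the tested miR-29 arms: miR-29a-3p lies lowest, at an SD of 0.106, and miR-29b-3p at 1.30.

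miR-29b-3p was lower at 6 d. It was at 26.7, 3.97 and 9.02 normalised CPM in the 6 d libraries, against 41.1, 30.6 and 46.8 in the 0 h libraries. The groups do not overlap, and 6 d replicate 2 was the lowest of all. The means were 13.2 ± 12.0 at 6 d and 39.5 ± 8.21 at 0 h (SD, n = 3 each). The log2 fold change was -1.84 ± 0.58 (SE, limma adjusted p = 0.031), with a 95% interval of -3.15 to -0.54.

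The 6 d values of miR-29b-3p rest on few reads, 42, 3 and 10, against 169, 184 and 303 at 0 h. After 1 random thinning of each library to 617069 reads, 12, 3 and 10 reads were left at 6 d and 15, 22 and 25 at 0 h. The call did not hold in every test. The adjusted p was 0.058 with edgeR, 0.075 with DESeq2 and 0.11 with library totals alone, and omitting any 1 library other than 6 d replicate 1 also ended the call. Its limma adjusted p was then between 0.058 (0 h replicate 2 omitted) and 0.088 (6 d replicate 2 omitted). When 6 d replicate 1 was omitted the log2 fold change was -2.50 (limma adjusted p = 0.0033).

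miR-29c-3p stood slightly higher at 6 d, at 19.7, 14.6 and 12.6 normalised CPM, against 10.2, 9.98 and 10.8 at 0 h. All 6 d libraries lay above all 0 h libraries, on 31, 11 and 14 reads at 6 d and 42, 60 and 70 at 0 h. The means were 15.6 ± 3.67 at 6 d and 10.3 ± 0.426 at 0 h (SD, n = 3 each). The log2 fold change of 0.53 ± 0.37 did not pass the threshold (SE, limma adjusted p = 0.28), with a 95% interval of -0.30 to 1.37.

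miR-29c-5p, the other arm of the Mir29c hairpin, was at 19.7, 11.9 and 7.22 normalised CPM at 6 d and at 18.7, 13.8 and 21.3 at 0 h. The groups overlap. The log2 fold change of -0.52 ± 0.44 did not pass the threshold (SE, limma adjusted p = 0.38), with a 95% interval of -1.51 to 0.47.

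**Figure D2:**
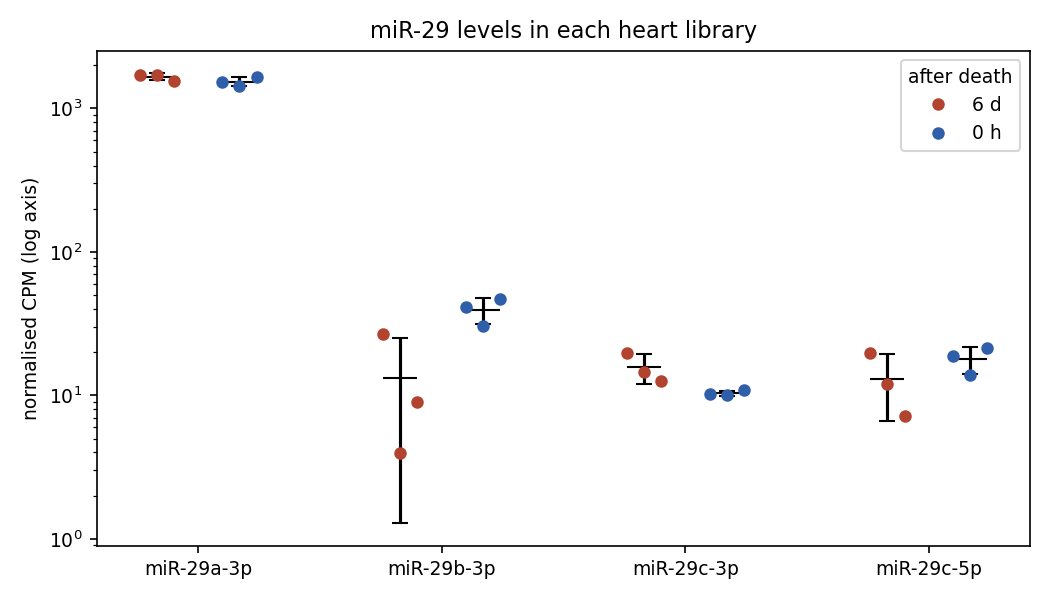
Normalised CPM on a log axis (y) of the 4 more abundant miR-29 arms (x) in each library, 6 d in red and 0 h in blue, with black bars for mean ± SD (n = 3). miR-29a-3p lies between 1429 and 1722 in all libraries, and the 6 d points of miR-29b-3p, 3.97 to 26.7, lie below its 0 h points, 30.6 to 46.8.

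The 3 remaining 5p arms were near the limit of detection. miR-29b-2-5p had 0 reads in each 6 d library and 7, 11 and 7 reads at 0 h, or 1.70, 1.83 and 1.08 normalised CPM. Those 0 h levels lie below the 6 d floor of 3 reads, so no fold is given. At its 0 h share, 4.07 reads would be expected in the 3206333 reads of the 6 d libraries. It passed the filter through its 0 h values alone, and its limma call (adjusted p = 0.020) describes that pattern. miR-29a-5p had 0 reads at 6 d and 2, 0 and 1 at 0 h, and miR-29b-1-5p had 0, 1 and 0 reads at 6 d and 0, 2 and 1 at 0 h. Neither passed the filter.

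Of the 7 miR-29 rows 5 were tested, and 4 of these had a value of 1 or more in both groups. Called by limma were 2 of the 5, both lower at 6 d, namely miR-29b-3p and miR-29b-2-5p. Without miR-29b-2-5p, which passed the filter only through its 0 h values, the count was 1 of 4. Over all 470 tested miRNAs 37.9% were called, 16% higher and 21.9% lower. That split moves with the scaling: 75 of the 178 calls were higher on the deposited scale, against 90 of 174 with RLE size factors and 83 of 123 with library totals alone. Groups that did not overlap were found for 2 of the 4 read in both groups, against 50.6% of all tested miRNAs. By edgeR 0 of the 4 it tested were called, with 1 of them, miR-29b-3p, at an unadjusted p under 0.05, while edgeR called 43% of the 363 miRNAs it tested. The median log2 fold change of the 4 read in both groups was -0.20, against -0.33 over all tested miRNAs.

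The balance inside the family does not depend on how a library is scaled. Of the reads of the 3p arms, miR-29a-3p held 98.3% ± 0.831 at 6 d and 96.9% ± 0.317 at 0 h (SD, n = 3 each). miR-29b-3p held 0.771% ± 0.666 at 6 d and 2.47% ± 0.342 at 0 h, and miR-29c-3p 0.918% ± 0.174 at 6 d and 0.652% ± 0.0248 at 0 h (SD, n = 3 each). In single libraries the share of miR-29b-3p was 1.51% (95% Wilson interval 1.12 to 2.04), 0.228% (0.0776 to 0.669) and 0.570% (0.310 to 1.05) at 6 d. At 0 h it was 2.59% (2.24 to 3.01), 2.08% (1.81 to 2.40) and 2.73% (2.44 to 3.05). The shares of miR-29b-3p thus did not overlap between the groups, although the interval of 6 d replicate 1 reaches that of 0 h replicate 2. For miR-29c-3p they were 1.12% (0.789 to 1.58), 0.837% (0.468 to 1.49) and 0.799% (0.476 to 1.34) at 6 d and 0.645% (0.477 to 0.870), 0.679% (0.528 to 0.873) and 0.631% (0.4997 to 0.796) at 0 h. These points did not overlap either, but all their counting intervals do.

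Set against each other in 3 pairs, the 3p arms had log2 ratios that did not overlap between the groups at full depth. The log2 ratio of miR-29b-3p to miR-29a-3p was -7.40 ± 1.38 at 6 d and -5.30 ± 0.21 at 0 h, a difference of -2.10 (SD, n = 3 each). That of miR-29c-3p to miR-29a-3p was -6.76 ± 0.27 at 6 d and -7.22 ± 0.05 at 0 h, a difference of 0.46. That of miR-29b-3p to miR-29c-3p was -0.64 ± 1.16 at 6 d and 1.91 ± 0.26 at 0 h, a difference of -2.55. Both of these arms share their first 17 bases, so shortened reads could be counted under either. The 3 pairs are not independent, since the last ratio follows from the others. For levels, 50.6% of all tested miRNAs did not overlap between the groups, and no such share was computed for ratios. Each exact two-sided permutation p was 0.1, and 0.1 after adjustment over the 3 pairs. No smaller p can be reached with 3 libraries a group, so this design cannot pass 0.05. The pair of miR-29c-3p and miR-29a-3p did not keep its separation in the 1 random draw made at equal depth. With each library thinned to 617069 reads, miR-29c-3p had 12, 9 and 14 reads at 6 d and 6, 8 and 6 at 0 h. Its log2 ratio to miR-29a-3p then differed by 0.22, with overlapping groups and an exact two-sided permutation p of 0.5, and its share of the 3p reads by 0.147 percentage points, against 0.266 at full depth. The overlap came from 0 h replicate 2, at -6.40 on 8 reads of miR-29c-3p. No other draw was made, so an effect of depth cannot be told from that of the draw. At full depth without 6 d replicate 1 the log2 ratio of miR-29c-3p to miR-29a-3p differed by 0.30. Per 100 reads of miR-29a-3p there were 0.788 of miR-29b-3p at 6 d and 2.55 at 0 h. Thus miR-29b-3p had more reads than miR-29c-3p in every 0 h library and in 1 of the 6 d libraries. The hairpins of miR-29b-2 and miR-29c are neighbours on chromosome 1. The log2 fold changes of their 3p arms were -1.84 and 0.53, of which the second was not past the threshold, and miR-29b-3p also comes from chromosome 6.

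**Figure D3:**
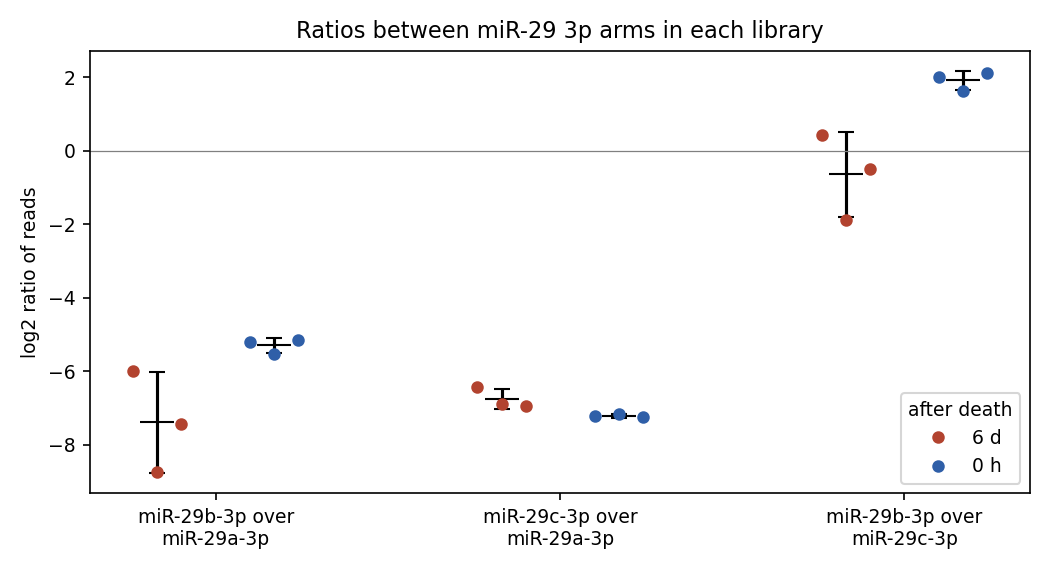
Log2 ratio of reads (y) for the 3 pairs of miR-29 3p arms (x) in each library, 6 d in red and 0 h in blue, with black bars for mean ± SD (n = 3). The ratio of miR-29b-3p to miR-29c-3p averages -0.64 at 6 d and 1.91 at 0 h, and 6 d replicate 1, at 0.44, is the nearest 6 d point to the 0 h ones.

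The order of levels followed from this. The arms are 22 to 25 bases long, so levels are set side by side without a length correction. At 0 h the order was miR-29a-3p, miR-29b-3p, miR-29c-5p and miR-29c-3p, and no neighbours overlapped. At 6 d miR-29a-3p was again first, while miR-29c-3p (12.6 to 19.7), miR-29b-3p (3.97 to 26.7) and miR-29c-5p (7.22 to 19.7 normalised CPM) overlapped.

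The arms of a hairpin differed widely in their balance. For Mir29c the 5p arm had 48 of 104 reads at 6 d (46.2%) and 298 of 470 at 0 h (63.4%), so the usual guide had fewer reads at 0 h. This balance shares the uncertainty of miR-29c-3p, whose reads the counting could split with miR-29a-3p. The log2 ratio of 5p to 3p was -0.33 ± 0.37 at 6 d and 0.76 ± 0.27 at 0 h (SD, n = 3 each). Its values were 0.00, -0.26 and -0.74 at 6 d and 0.86, 0.46 and 0.97 at 0 h, without overlap. The difference of -1.10 ± 0.42 did not pass the threshold (SE, limma adjusted p = 0.072). Over the 138 precursors with both arms tested, 34.8% were called. With both arms at a mean of 10 normalised CPM or more over all libraries, the same difference had a limma adjusted p of 0.030. That setting tested 66 precursors, and the share called among them is not given here.

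For Mir29a the 5p arm had 0 reads against 5730 of the 3p arm at 6 d, and 3 against 25616 at 0 h. For miR-29b the 5p arms differ between the loci, but their counts do not assign the shared 3p reads to a locus. At 0 h there were 25 5p reads from Mir29b-2 and 3 from Mir29b-1, beside 656 reads of the shared 3p arm. At 6 d there were 0 and 1, beside 55. The difference in the log2 ratio of miR-29b-2-5p to miR-29b-3p was 0.91 ± 0.83 (SE, limma adjusted p = 0.43), with 1 read added to each arm. With 0 reads of miR-29b-2-5p in each 6 d library, its 6 d ratios are set by the added read and the 3p arm. The difference was 0.08 with 0.5 read added, so it does not measure a change in arm balance.

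The profiles most like those of the 3p arms were sought among the 135 other tested miRNAs with a mean of at least 100 normalised CPM. Likeness was the root mean square difference of the centred log2 values over the 6 libraries, so that 0 would be the same profile. Nearest to miR-29a-3p were miR-221-3p (0.158), miR-181d-5p (0.181), miR-148b-3p (0.184), miR-107-3p (0.197) and miR-1981-5p (0.222), against a median of 0.765 over the candidates. None of these 5 was called by limma, which their choice by likeness to the uncalled miR-29a-3p in the same libraries made likely. Nearest to miR-29b-3p were miR-208a-3p (0.373), miR-351-5p (0.495) and miR-26a-5p (0.533), with a median of 1.17. miR-208a-3p, which is encoded in the myosin gene Myh6, was at 139, 47.6 and 50.5 normalised CPM at 6 d and 182, 162 and 261 at 0 h. It shared with miR-29b-3p the highest 6 d value in replicate 1, a likeness for which it was picked. Nearest to miR-29c-3p were miR-148b-3p (0.169), miR-199b-3p and miR-199a-3p (both 0.185), with a median of 0.816. The miR-199 rows share reads and count as 1.

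Other miRNAs tied to heart fibrosis in rodent work did not move as 1 group. Of 12 listed as lowering fibrosis 11 were tested, and 2 rose and 3 fell by limma (median log2 fold change -0.25), with the same counts by edgeR. These 45.5% called stand beside 37.9% of all tested miRNAs, of which 16% were higher and 21.9% lower, with a median of -0.33. Those that rose were miR-133a-3p, which targets connective tissue growth factor (log2 fold change 1.43, limma adjusted p = 0.0069), and miR-15b-5p (1.44, limma adjusted p = 0.011). Those that fell were miR-26a-5p (-1.25, limma adjusted p = 0.017), miR-30c-5p, also a regulator of connective tissue growth factor (-3.03, limma adjusted p = 8.8e-05), and miR-24-3p (-1.38, limma adjusted p = 0.0061). The values of miR-378a-3p (-0.88) and let-7i-5p (-0.06) were not past the threshold. Of 8 listed as raising fibrosis 1 rose and 2 fell by limma (median -0.17), which is 37.5%, near the share over all tested miRNAs. By edgeR 2 rose and 2 fell, the added one being miR-223-3p (edgeR adjusted p = 0.019). The fibroblast miRNA miR-21a-5p rose, at 12253, 5137 and 4598 normalised CPM at 6 d against 3227, 2406 and 2848 at 0 h (1.24, limma adjusted p = 0.035). miR-125b-5p (-2.42, limma adjusted p = 0.0017) and miR-208a-3p (-1.49, limma adjusted p = 0.024) fell, and miR-328-3p (-0.74) and miR-199b-5p (0.14) did not pass the threshold.

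The direction of the 4 more abundant arms held in each scaling and test that was run and with each library left out. Over these settings the log2 fold change lay between 0.06 and 0.57 for miR-29a-3p, between -2.50 and -1.26 for miR-29b-3p, between 0.36 and 0.96 for miR-29c-3p and between -0.86 and -0.10 for miR-29c-5p. The highest values of miR-29a-3p and miR-29c-3p and the one nearest 0 of miR-29c-5p came with library totals alone.

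**Figure D4:**
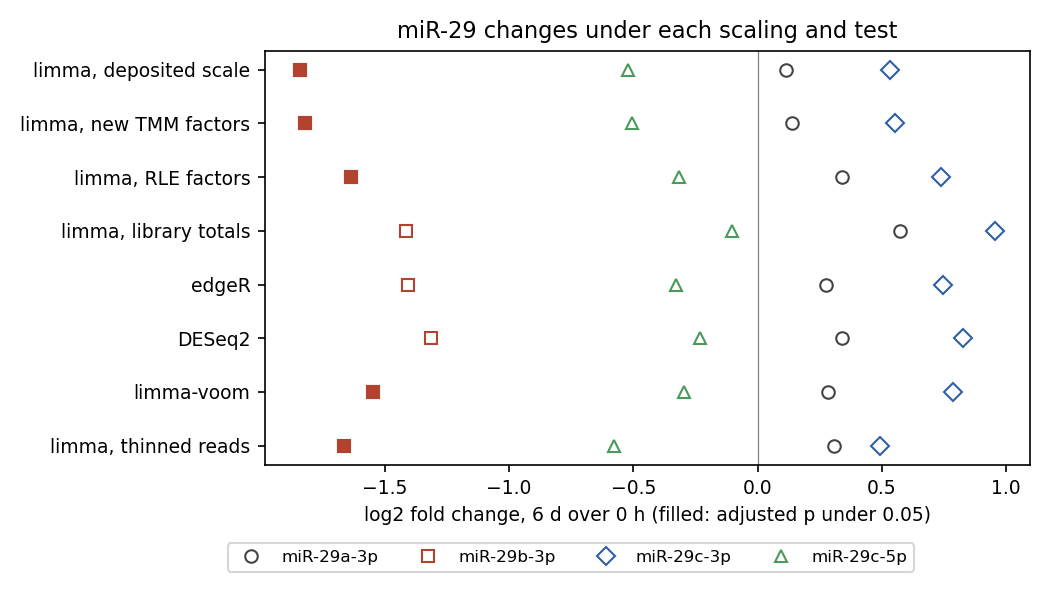
Log2 fold change of 6 d over 0 h (x) for 4 miR-29 arms under 8 combinations of scaling and test (y), filled where the adjusted p is under 0.05. miR-29b-3p is below 0 throughout and filled in 5 of the 8, and the other arms are open in all 8.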

How the data were processed

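One deposited file holds raw read counts per mature miRNA (0 h replicate 1), and the other 5 deposited files hold log2(x + 1) values with 3 decimals. The submitters' processing notes list STAR 2.5.3a, cutadapt 2.8, Trimmomatic 0.39 and FastQC without their roles. Per the labels' protocols, a NEBNext small RNA kit was used on Trizol-extracted RNA. No source used here names the counting tool, annotation or build. In the log2 files x was a whole multiple of 1 step per library for 2692 of 2692 values that could be tested, within 0.0005 on the log2 scale, so reads were recovered. Values above that range, such as those of miR-29a-3p, carry a rounding error of 0.0347%. The counts of 0 h replicate 1 were put on the same scale with a factor of 0.919, which makes the 6 library factors multiply to 1 and is derived, not stated by the authors.

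The main test was limma 3.58.1 (trended, robust) on log2(value + 1) for the 470 miRNAs that reached a value of 1 in 3 or more libraries, with Benjamini-Hochberg adjustment over all 470 and calls under 0.05. This scale understates the change of low miRNAs. Arm ratios were tested with limma on log2 read ratios with 1 read added to each arm. Exact permutation tests used scipy 1.17.1. edgeR 4.0.16 and DESeq2 1.42.0 ran on the recovered reads as alternatives, besides limma-voom, other scalings, pseudocounts, filters, thinning and leaving out each library. The limma tests of levels and of arm ratios were tried on simulated data, the arm ratios with the same mean depth in every library. Their outcome is not given here. Of the 984 names in the files 851 matched the RefSeq miRNA table, all 7 miR-29 rows among them. Reads carry no molecular identifiers, so intervals and floors cover only counting error.

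Named miRNAs were all miR-29 rows, the nearest profiles (5 for miR-29a-3p and 3 each for the others), and up to 3 risen, 3 fallen and 2 uncalled of the most abundant members of each fibrosis list. Members and lists were chosen with earlier results of these data known. Marker lists not described in the results were erythroid, with 1 of 5 higher and 0 lower, leukocyte, with 0 of 5 called (2 higher by edgeR), and heart, with 2 of 6 higher and 2 lower. Of the fibroblast list 1 of 8 was higher and 1 lower (3 and 1 by edgeR, where miR-199a-3p and miR-199b-3p, which share reads, are counted apart). Of the other organs 9 of 11 tested were higher and 0 lower. By limma 20% of the erythroid, 0% of the leukocyte, 66.7% of the heart, 25% of the fibroblast and 81.8% of the other-organ list were called. The share over all tested miRNAs was 37.9% by limma and 43% by edgeR.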

Additional observations from a re-analysis of the deposited data

How the results depend on the processing

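miR-29b-3p was the arm whose call depended on the setting. Its log2 fold change was -1.41 with library totals alone (adjusted p = 0.11), -1.41 with edgeR (0.058) and -1.32 with DESeq2 (0.075), none past the threshold, and ranged from -2.50 to -1.26 when 1 library was left out; the cause was not tested. The Mir29c arm ratio, -1.10, passed the threshold when both arms had to reach a mean of 10 normalised CPM, where fewer precursors were tested. The 178 called miRNAs became 114 with 0 h replicate 1 omitted, the lowest count with any library omitted, and 179 at the highest. Other alternatives kept direction and side of the threshold for the levels of miR-29a-3p, miR-29c-3p and miR-29c-5p. The pair ratios and family shares kept direction only, since the pair p cannot go under 0.05 and the shares had no test. In the 1 thinning draw the log2 ratio of miR-29c-3p to miR-29a-3p differed by 0.22. With the replicate block the log2 fold change of miR-29b-3p was -1.84 (adjusted p = 0.0047) and 195 miRNAs were called; the block changed no other miR-29 call. Libraries with the same number deviated together with r of 0.07, 0.06 and 0.27, not all above 0.1, so the numbers were not taken as pairs. Between libraries with different numbers r ran from -0.22 to 0.16, and whether the numbers mark pairs stays unsettled. The planned sum over all arms could not be applied to the pair ratios, and miR-29b-2-5p had no value where it failed a filter. Depth limits miR-29b-3p, miR-29c-3p and miR-29c-5p, with 3 to 42 reads each at 6 d, and the other 5p arms, with 0 or 1.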
